A study of Mus musculus with 6 samples.

Results

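Cbln3, C1ql2 and C1qtnf4 encode secreted proteins that end in a C1q domain, the fold named after complement component C1q, and all of them are read here as neuronal C1q-domain genes rather than as members of the complement cascade. They were chosen by name from the authors' list of genes lower after delivery of mesenchymal stromal cells (MSC), and were joined by gene identifier to the table of scaled read counts. They make up 3 of the 41096 genes in that table. The contrast between MSC treated and sound trauma cochleae therefore chose them, and their difference between the groups is described below without a test.

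C1q domains assemble as trimers, and several families of brain proteins use them to organize synapses. Cerebellins are the best known: Cbln1, released by cerebellar granule cells, joins parallel fibres to Purkinje cells across the synapse, and Cbln3 is a granule cell cerebellin that depends on Cbln1 to leave the cell. The C1q-like proteins include C1ql1 of the climbing fibre, a ligand of the adhesion receptor Adgrb3, and C1ql2 of hippocampal mossy fibres, which links neurexins to kainate receptors such as Grik2. C1qtnf4 is a secreted C1q and tumor necrosis factor related protein with a pair of C1q domains, and a role at synapses is not established for it. The classical complement proteins C1qa, C1qb and C1qc share the domain but start an immune cascade.

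The RNA came from left cochleae of female C57BL/6 mice (written C56Bl/6 in the labels), 4 weeks old, all exposed for 4 h to narrow band sound at 16 kHz. In the MSC treated group, 3 specimens (13, 18 and 20) received cells from human umbilical cord Wharton's jelly through the posterior semicircular canal. The sound trauma group, 3 specimens (6, 8 and 10), had noise alone by the labels, while the methods describe an injection of artificial perilymph in control animals, so an effect of the cells and one of an injection cannot be told apart. Cells of 3 cords were used in the study, no untreated or unexposed cochlea is among the 6 libraries, and RNA was taken 2 days after treatment by the labels and 72 h after it by the methods. Each library is 1 specimen, with between 9170390 and 11030863 reads assigned to genes. Sound trauma specimens 6 and 8 stood apart from the other 4 libraries in the summed markers of cerebellar granule cells and hair cells given further on. In the Purkinje cell sum only specimen 8 did so, although the median Purkinje cell marker was also higher in specimen 6. The fold changes of the 3 genes and of Cbln1 and the list medians are therefore given with and without both specimens.

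The coding sequences show how far reads of these genes could be confused with those of relatives. In the GENCODE M21 annotation of GRCm38, a different build from the C57BL/6NJ genome the authors aligned to, no other annotated gene overlapped Cbln3, C1ql2 or C1qtnf4. Their coding sequences were 591, 861 and 978 bases long, and none of their 50-base windows (542, 812 and 929 windows) occurred in a transcript of another gene. Shared runs were sought only among the members and Cbln1, Cbln4, C1ql1, C1ql3 and C1ql4, so Cbln2 and other C1qtnf genes were not compared. The closest stretches in these comparisons are printed below as 90-base windows of coding sequence on the gene's own strand, with the longest run shared by the pair in capitals. The window of Cbln3 spans chr14:55883547-55883961 and that of Cbln1 chr8:87471772-87472026, both on the minus strand with an intron inside the interval.
Cbln3: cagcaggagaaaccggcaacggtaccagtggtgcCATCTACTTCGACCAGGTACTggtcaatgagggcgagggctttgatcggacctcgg
Cbln1: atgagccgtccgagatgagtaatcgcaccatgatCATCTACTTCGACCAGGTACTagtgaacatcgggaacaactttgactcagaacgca

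These granule cell partners shared at most 21 bases in a row. C1ql2 and C1ql3 shared 38 bases, the longest run found for any of the 3 genes among the relatives compared. Their windows are at chr1:120341596-120341685 on the plus strand and chr2:13010376-13010465 on the minus strand. Each of these windows lies within 1 coding exon.
C1ql2: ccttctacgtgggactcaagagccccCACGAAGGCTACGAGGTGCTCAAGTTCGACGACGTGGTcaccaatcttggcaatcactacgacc
C1ql3: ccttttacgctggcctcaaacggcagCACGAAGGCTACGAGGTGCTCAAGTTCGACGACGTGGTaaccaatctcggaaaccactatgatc

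For C1qtnf4 the longest run shared with a relative compared was one of 14 bases with Cbln3, inside the window at chr2:90890256-90890345 on the plus strand. The length of the sequencing reads is not given in the sources used here, so how often a read would fall wholly inside a shared run was not computed.
C1qtnf4: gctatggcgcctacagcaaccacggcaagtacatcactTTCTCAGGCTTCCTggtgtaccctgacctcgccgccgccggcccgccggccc

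Cbln3 (MGP_C57BL6NJ_G0021776) was abundant in 2 sound trauma cochleae and scarce in the other 4 libraries. Scaled counts, which are reads multiplied by 1 factor per library, were 615 in specimen 6, 5659.9 in specimen 8 and 8.04 in specimen 10 of the sound trauma group. They were 21.8, 29.6 and 23.3 in MSC treated specimens 13, 18 and 20. Specimen 8 was 9.20-fold above specimen 6 and 191-fold above the highest MSC treated value, while specimen 10 was lower than every MSC treated library, at 0.369 of the lowest. The groups therefore overlapped, with 1 sound trauma library below and 2 above all of the MSC treated ones. Specimen 10 held 9 reads of Cbln3, with a 95% Poisson interval of 4.12 to 17.1 reads, against 5920 reads in specimen 8. These intervals cover counting error only. The group means were 2094 ± 3103 (SD, n = 3) for sound trauma and 24.9 ± 4.14 (SD, n = 3) after MSC delivery. On the scale of log2(scaled count + 1), the MSC treated mean was lower by 3.62, written as a log2 fold change of -3.62 with a standard error (SE) of 2.15. The pooled SD within the groups was 3.34 on that scale, close to the size of the difference.

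C1qtnf4 (MGP_C57BL6NJ_G0026555) had the same order among the sound trauma cochleae over a narrower range. Its scaled counts were 206 in specimen 6, 589.9 in specimen 8 and 45.6 in specimen 10, and 62.3, 83.7 and 41.7 in specimens 13, 18 and 20. Specimen 8 was 2.86-fold above specimen 6 and 7.04-fold above the highest MSC treated value, and specimen 10 lay between the MSC treated values. The groups overlapped through specimen 10 alone. The means were 281 ± 279.7 (SD, n = 3) and 62.6 ± 21 (SD, n = 3), and the log2 fold change was -1.55 (SE 0.88). With 43 to 617 reads in each library, C1qtnf4 was the only one of the 3 genes with more than 40 reads in all 6.

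C1ql2 (MGP_C57BL6NJ_G0016810) was low throughout and followed another order. Its scaled counts were 64.9 in specimen 6, 5.74 in specimen 8 and 4.47 in specimen 10 of the sound trauma group, against 14.5, 2.04 and 16.5 in specimens 13, 18 and 20. Only specimen 6 stood apart, at 3.93-fold above the next highest library (specimen 20) and 11.3-fold above specimen 8, the library richest in Cbln3 and C1qtnf4. The remaining sound trauma values fell inside the MSC treated range, which itself spanned 8.08-fold. Reads numbered 56, 6 and 5 against 14, 2 and 17, so that specimen 18 (95% Poisson interval 0.242 to 7.22 reads) was under a floor of 3 reads. The gene passed the filter on low counts through the 3 libraries with at least 10 reads. The means were 25.03 ± 34.5 (SD, n = 3) and 11.0 ± 7.84 (SD, n = 3), and the log2 fold change was -0.52 (SE 1.15), smaller than its own error.

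**Figure D1:**
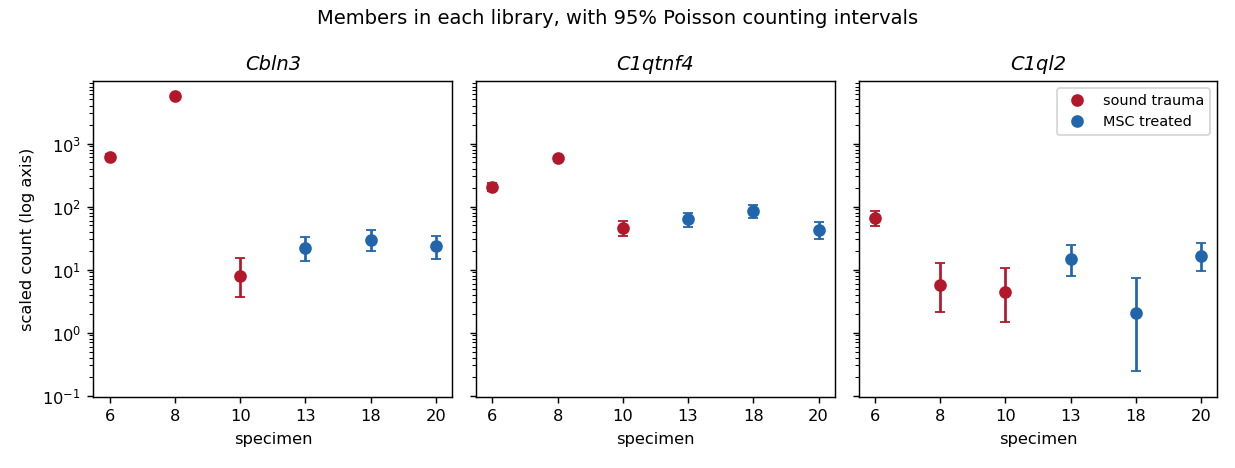
Scaled counts (log axis) of Cbln3, C1qtnf4 and C1ql2 in each specimen, sound trauma in red and MSC treated in blue, with 95% Poisson counting intervals. Cbln3 and C1qtnf4 were highest in specimen 8 (5659.9 and 589.9) and next in specimen 6, C1ql2 in specimen 6 (64.9), and specimen 10 lay within or below the MSC treated range for all 3.

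Set against all 15970 genes that passed the filter, which include Cbln3, C1ql2 and C1qtnf4, the patterns read as follows. None of the 3 had all sound trauma values above all MSC treated values, a pattern that 2.92% of genes tested showed (the reverse held for 4.25%). The 3 fitted values were lower after MSC delivery, as were 49.8% of all genes tested (50.2% were higher), but the choice of the genes favoured that direction and nothing is read from it. Specimen 8 held the highest value of 28.2% of all genes and specimen 6 that of 21.1%. The order seen for Cbln3 and C1qtnf4, specimen 8 first and specimen 6 second, occurred in 10.4% of genes tested. The choice of the genes bears on this order too, and nothing is read from that share. None of the 15970 genes passed an adjusted p of 0.05 in limma, edgeR or DESeq2 (percent called 0, smallest limma adjusted p 0.954). At an unadjusted p under 0.05, limma called 107 genes lower (0.67%) and 269 higher (1.68%) after MSC delivery (61 and 295 with total-count scaling), edgeR 266 lower and 259 higher, and DESeq2 550 lower and 249 higher, so the balance of directions differed by tool. The median log2 fold change over all genes tested was 0.00.

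Levels of different genes can be set side by side only per length, from the authors' mean FPKM (fragments scaled to gene length and to library depth), which comes without an error. In sound trauma cochleae the authors' mean was 45.6 FPKM for Cbln3, 21.8 for C1qtnf4 and 1.14 for C1ql2, with Cbln1 at 64.2. After MSC delivery it was 5.01 FPKM for C1qtnf4, 0.562 for C1ql2 and 0.546 for Cbln3, with Cbln1 at 3.90. The methods give 5 animals per condition and 3 libraries per group were analysed here, and the sources do not name the libraries behind these FPKM means. With specimen 8 so far above the others in Cbln3, no order of the 3 genes is read from the sound trauma means.

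The difference between the groups turned on which sound trauma cochleae were counted. Without specimen 8, the log2 fold change of Cbln3 was -1.54 and that of C1qtnf4 -0.68. Without specimen 10 they were -6.18 and -2.52. C1ql2 changed sign without specimen 6, to 0.63, and also without MSC treated specimen 18, to 0.30. With specimens 6 and 8 both left out, an alternative added after the data were seen, only specimen 10 stood for sound trauma and all 3 genes were higher in MSC treated cochleae, with log2 fold changes of 1.51 for Cbln3, 0.39 for C1qtnf4 and 0.78 for C1ql2. Count models on the recovered reads, which weight the means of raw reads rather than of logs, gave -6.40 for Cbln3 and -2.17 for C1qtnf4 in both edgeR and DESeq2, and -1.15 and -1.21 for C1ql2.

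**Figure D2:**
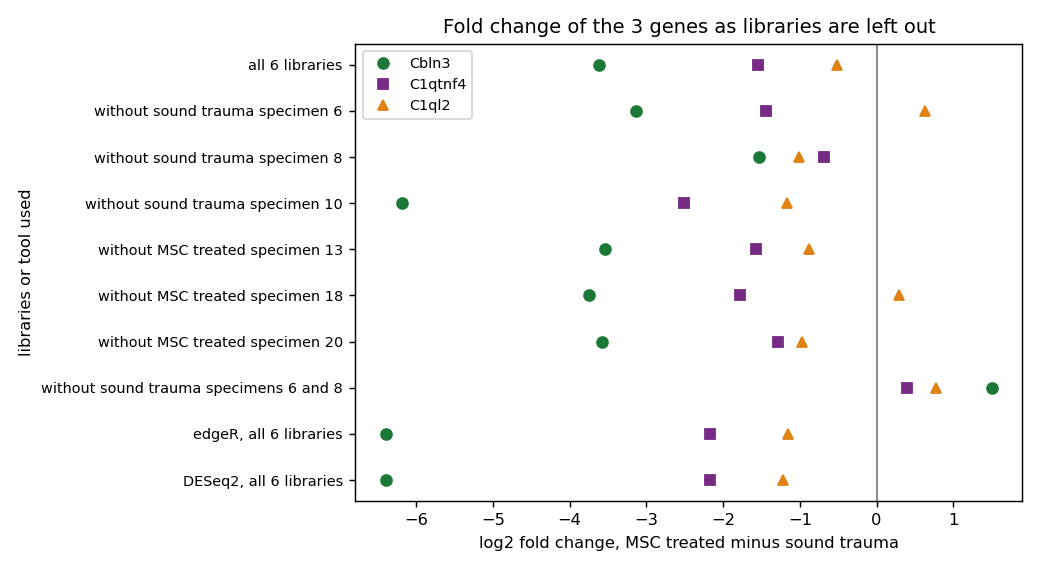
Log2 fold change (MSC treated minus sound trauma) of the 3 genes with all libraries, with each specimen left out, with specimens 6 and 8 left out, and by edgeR and DESeq2; the vertical line marks 0. C1ql2 crossed 0 without specimen 6 (0.63) or specimen 18 (0.30), and all 3 genes did so without specimens 6 and 8.

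Of a list of 30 C1q-domain genes, 9 carried a name in the authors' lists and all 9 were tested. Those names too were picked by the authors on these cochleae, so the genes are not independent evidence of a direction. Of the 6 besides the members, 3 had lower and 3 higher fitted values in MSC treated cochleae and 0 passed an adjusted p of 0.05 or an unadjusted p of 0.05 in limma. Their median log2 fold change was -0.12, and -0.52 with the members included (-1.41 for all 9 without specimen 10, 0.40 without specimens 6 and 8). Cbln1 (MGP_C57BL6NJ_G0034408), the partner that Cbln3 needs for secretion, followed the order of Cbln3, with scaled counts of 575, 3761 and 55.4 in specimens 6, 8 and 10 against 43.6, 160.3 and 56.3 in specimens 13, 18 and 20. Its log2 fold change was -2.74 (SE 1.46), and here specimen 10 was inside the MSC treated range rather than below it. It was -1.28 without specimen 8, -4.31 without specimen 10 and 0.40 without specimens 6 and 8.

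C1ql1, the climbing fibre ligand closest to C1ql2 in name, was high in libraries of both groups. Its scaled counts were 280.5, 142 and 34.8 in sound trauma and 28.1, 196 and 21.4 in MSC treated specimens, with a log2 fold change of -1.17 (SE 1.05), or 0.49 without specimens 6 and 8. MSC treated specimen 18, the lowest library for C1ql2, was the second highest for C1ql1. Cbln2, a cerebellin of many brain regions, was at 23.2, 58.3 and 0.893 against 10.4, 14.3 and 15.5, with a log2 fold change of 0.03 (SE 1.21) that turned to -0.32 with a pseudocount of 10. The value in specimen 10 was a single read, and without specimens 6 and 8 the log2 fold change was 2.91.

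The C1q-domain proteins of matrix had other orders. Col10a1, the collagen of hypertrophic cartilage, was at 16.2, 166 and 60.8 against 37.4, 52.1 and 49.5, lowest in specimen 6 (log2 fold change -0.26, SE 0.78). Emilin1 and Emilin2, glycoproteins of elastic fibres, had log2 fold changes of 0.30 (SE 0.22) and 0.26 (SE 0.23), which turned to -0.18 and -0.24 without specimens 6 and 8. Both were lowest in specimen 6 and highest in specimen 10.

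Of 10 receptors and partners of these proteins listed, 7 had a name. All 7 were on the authors' list of lower genes, which favoured lower fitted values, so nothing is read from their direction. Fitted values were lower in MSC treated cochleae in 7 of 7, against 49.8% of all genes tested, and 0 passed an unadjusted p of 0.05 in limma. Their median log2 fold change was -1.21 (-0.25 without specimen 8, -2.04 without specimen 10, 0.53 without specimens 6 and 8). In all 7 specimen 8 was highest and specimen 6 next, the order of 10.4% of all genes tested. The naming, from a list made on these cochleae, bears on this order too, so nothing is read from that share.

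The kainate receptor subunit Grik2 was at 81.1, 407 and 17.9 against 20.8, 25.5 and 33.0 (log2 fold change -1.67, SE 1.04). Adgrb3 was at 83.4, 342 and 21.4 in sound trauma, specimen 10 below all MSC treated values (log2 fold change -1.21, SE 0.93). Of the presynaptic receptors of cerebellins and C1q-like proteins, Nrxn3 had a log2 fold change of -1.29 (SE 0.80) and Nrxn2 of -1.02 (SE 0.82). Grid1, a glutamate receptor family member that binds cerebellins, had -0.75 (SE 0.48). Relative to the MSC treated mean of each gene, the median of the 7 was 0.92 higher in specimen 6, 3.18 higher in specimen 8 and lower by 0.53 in specimen 10 on the log2 scale, where the median over all genes tested was -0.04, -0.01 and 0.00.

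The 3 named complement genes did not share that order. C3 and C1rl were on the authors' list of higher genes and Cfd on that of lower genes. The naming therefore bears on their directions and order, and nothing is read from the contrast with the receptors. Of 20 listed, 3 had a name, with a median log2 fold change of 0.16 (0.066 without specimen 8, 0.26 without specimen 10, 0.21 without specimens 6 and 8), 2 higher and 1 lower in fitted value, and 0 past an unadjusted p of 0.05 in limma. C3, the central component of the cascade, was at 3251, 2933 and 3848 in sound trauma and 3924, 3377 and 3829 in MSC treated cochleae, with a log2 fold change of 0.16 that turned to -0.056 without specimens 6 and 8. C1rl, a C1r-like protease, was at 40.6, 60.2 and 62.5 against 82.1, 54.1 and 85.4. Cfd, the adipsin of the alternative pathway, was highest in specimen 6 at 2911 and in specimen 13 at 1685, with 679.8, 144, 136 and 194 in specimens 8, 10, 18 and 20. Its log2 fold change was -0.89 (SE 1.33), or 1.30 without specimens 6 and 8. C1qa, C1qb and C1qc carried no name in the files, so the classical C1q chains themselves were not analysed here.

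**Figure D3:**
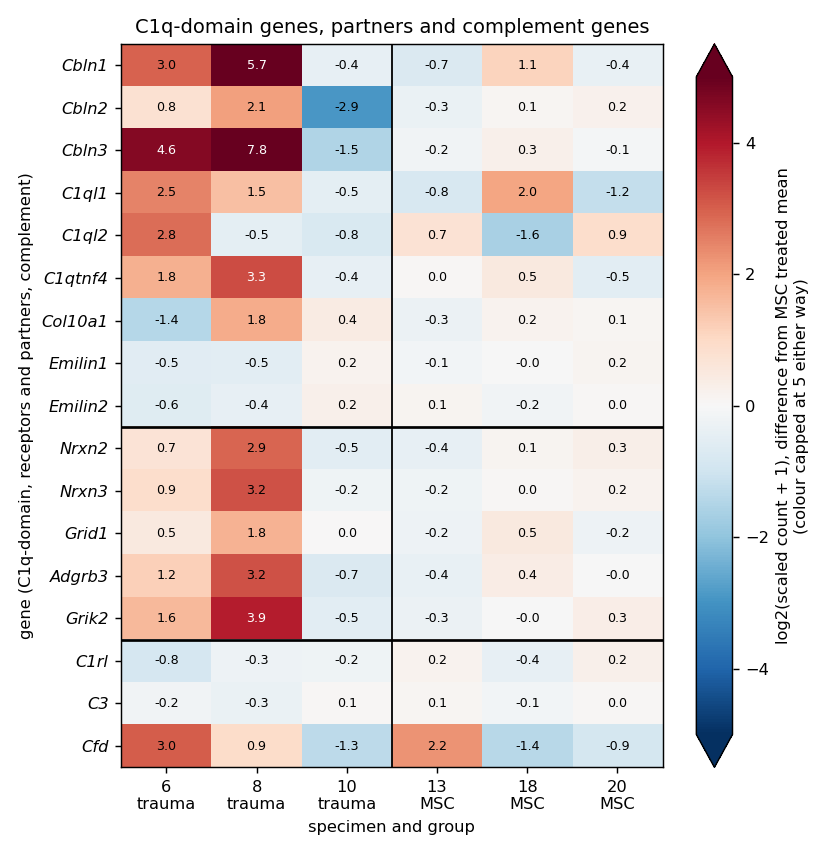
Each gene's log2(scaled count + 1) relative to its average over specimens 13, 18 and 20, for C1q-domain genes (top block), receptors and partners (middle) and complement genes (bottom) in each specimen, with the value printed in each cell and colour capped at 5 either way. Cbln3 and Cbln1 were the highest in specimen 8, C1ql2 stood out in specimen 6, and C3 and C1rl stayed within 1 of the MSC treated mean.

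Ratios within a library compare genes without any scaling between libraries. Cbln3 took 51.7% of the reads of Cbln3 and Cbln1 together in specimen 6 (95% Wilson interval 48.6 to 54.7%) and 60.1% in specimen 8 (59.1 to 61.0%). In the other libraries it took 12.7% (6.81 to 22.4%) in specimen 10, and 33.3% (22.9 to 45.6%), 15.6% (11.1 to 21.5%) and 29.3% (20.5 to 39.9%) in specimens 13, 18 and 20. The intervals, which cover counting error only, of specimens 6 and 8 lay above those of the other 4. Against Gabra6, the GABA-A receptor subunit of granule cells, the range was narrower. Cbln3 took 74.8% (71.5 to 77.8%) and 79.8% (78.9 to 80.7%) of the reads of Cbln3 and Gabra6 in specimens 6 and 8. In the other 4 libraries the share ran from 82.9% in specimen 18 to 91.3% in specimen 13, with intervals as wide as 59.6 to 98.2% in specimen 10, where both genes together had 10 reads.

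C1ql2 took 18.8% (14.8 to 23.6%) of the reads of C1ql2 and C1ql1 together in specimen 6, 3.87% (1.79 to 8.19%) in specimen 8 and 11.4% (4.95 to 24.0%) in specimen 10. The share was 34.1% (21.6 to 49.5%) in specimen 13, 1.03% (0.283 to 3.68%) in specimen 18 and 43.6% (29.3 to 59.0%) in specimen 20. The libraries of the MSC treated group thus covered a wider range than those of sound trauma.

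**Figure D4:**
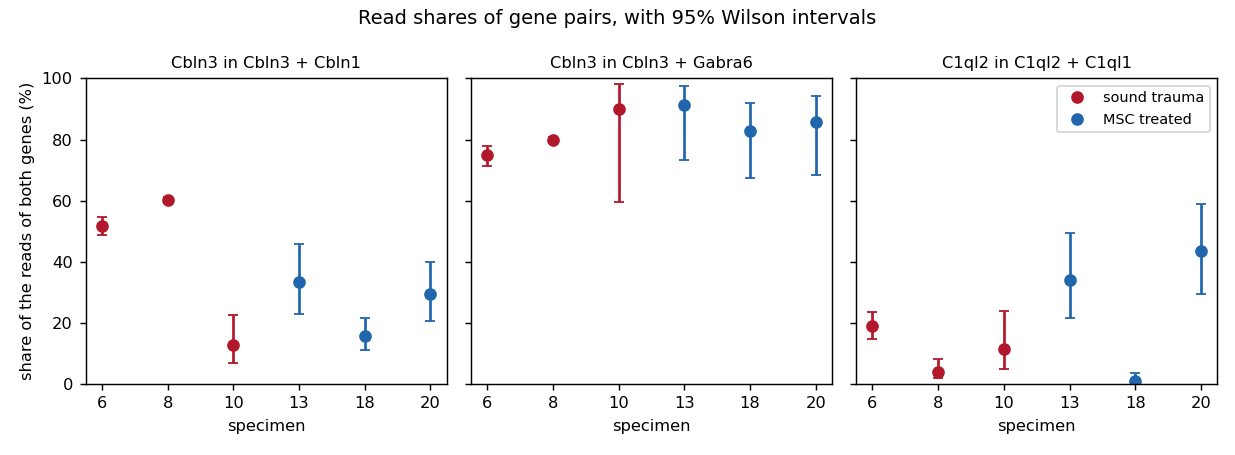
Share of reads, in percent, taken by Cbln3 of Cbln3 and Cbln1, by Cbln3 of Cbln3 and Gabra6, and by C1ql2 of C1ql2 and C1ql1 in each specimen, sound trauma in red and MSC treated in blue, with 95% Wilson intervals. Cbln3 exceeded 50% of the first pair only in specimens 6 (51.7%) and 8 (60.1%), whereas its share against Gabra6 stayed between 74.8 and 91.3%.

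Markers of cell types that lie outside the cochlea moved with Cbln3 and C1qtnf4. Of 16 cerebellar granule cell markers 14 had a name, and their summed scaled count was 6036, 28744 and 2707 in specimens 6, 8 and 10 and between 2863 and 4146 in MSC treated cochleae. For Purkinje cells, 10 of 12 markers had a name and the sums were 3185, 17883 and 2664 against 2619.9 to 3151. Itpr1 made up 1677 of the sum in specimen 6, where it had its lowest value. The median difference of the 8 Purkinje cell markers tested from their MSC treated means was 0.88, 3.80 and -0.25 on the log2 scale in specimens 6, 8 and 10. Gabra6, which defines granule cells, was at 207, 1431 and 0.893 in specimens 6, 8 and 10 and at 2.08, 6.13 and 3.88 in specimens 13, 18 and 20. Slc17a7, Zic2, Zic1 and Cbln1 had the highest mean scaled counts of the granule cell list, and Itpr1, Rora, Calb1 and Car8 of the Purkinje cell list. Several of them, such as Slc17a7 and Calb1, are also expressed by cochlear neurons or hair cells. Car8 was at 190.1 in specimen 6 and 2652 in specimen 8, and between 25.9 and 36.4 in the other 4 libraries. The Purkinje lineage factor Lhx5 was at 0 in specimens 10, 13 and 20. All named markers of both lists were on the authors' list of lower genes, which favoured lower fitted values, so nothing is read from their direction. The 11 granule cell and 8 Purkinje cell markers tested had lower fitted values after MSC delivery, as did 49.8% of all genes tested, with median log2 fold changes of -1.42 and -1.58 (0.40 and 0.25 without specimens 6 and 8). Without specimen 8 alone the medians were -0.32 and -0.31, and without specimen 10 alone -2.37 and -2.56. Of them 1, Barhl1, passed an unadjusted p of 0.05 in limma, as 0.67% of all genes tested did in that direction. The part of these cells in the members' values was not tested, and in bulk RNA more cells of a type and more RNA per cell cannot be told apart.

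The summed hair cell and other non-neuronal cochlear markers were lowest in specimens 6 and 8. The 3 named hair cell markers, Otof, Pou4f3 and Lhfpl5, summed to 291, 272 and 674 in specimens 6, 8 and 10 and to between 488 and 637 after MSC delivery. The 4 named markers of supporting, tectorial and lateral wall cells summed to 1676, 1808 and 4202 against 2879.9 to 3599. By these sums specimen 10 was the highest library on both lists. The hair cell sum was mostly Otof, at 604 in specimen 10, whereas Lhfpl5, at 27.8, 15.3 and 19.7 against 27.0, 34.7 and 32.0, did not have that order. The median log2 fold changes of both lists, 0.59 and 0.48, turned to -0.073 and -0.30 without specimens 6 and 8, and were 0.37 and 0.30 without specimen 8 and 0.91 and 0.87 without specimen 10. Spiral ganglion neuron markers, 6 of 12 named, were at 6446, 5986 and 4369 against 4869 to 4937, with 3 lower and 3 higher in fitted value. Scn4b made up 3430.4 of the sum in specimen 6, and the median difference of the 6 markers from their MSC treated means was -0.051, -0.53 and -0.30 on the log2 scale in specimens 6, 8 and 10. Their median log2 fold change was 0.10 (0.30 without specimens 6 and 8). Forebrain excitatory neuron markers, 3 of 10 named, were at 2348, 2676 and 687 against 409 to 1243, with a median log2 fold change of -1.18 (-0.084 without specimens 6 and 8). All of these lists hold only genes that the authors selected on the same cochleae.

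**Figure D5:**
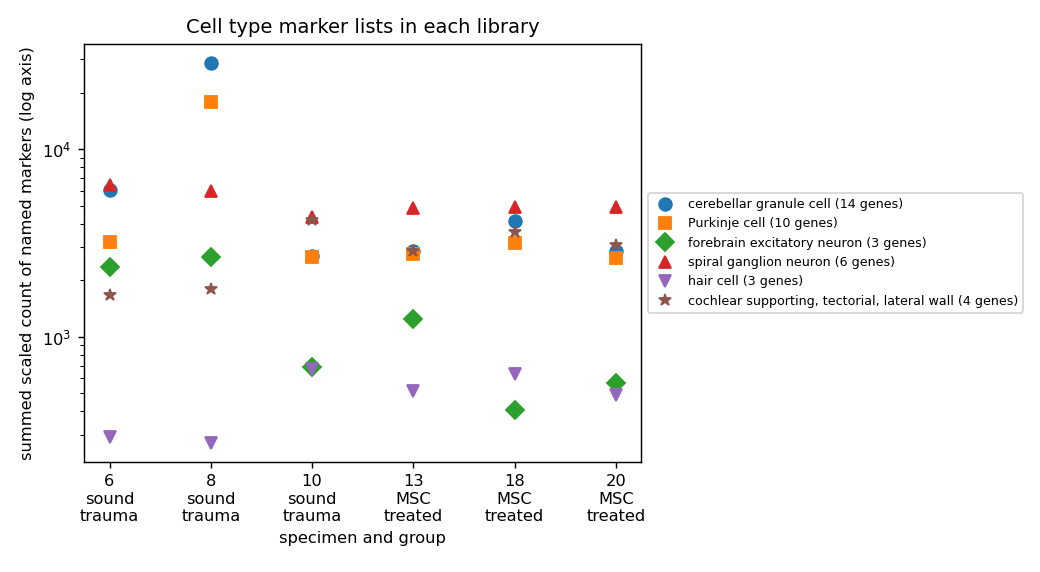
Summed scaled counts (log axis) of the named markers of 6 cell types in each specimen. Granule cell and Purkinje cell sums peaked in specimen 8 (28744 and 17883), and hair cell and other cochlear sums were lowest in specimens 6 and 8.

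The named genes with the most similar pattern differed for each member. Likeness was measured as the root-mean-square difference in log2(scaled count + 1), each gene centred on its own mean over the 6 libraries, among 3527 other named genes. The measure is not scaled by gene, so it counts the width of the range as well as the order of the libraries. For Cbln3 the nearest were the neuronal transcription factor Neurod2 (0.714), the NMDA receptor subunit Grin2c (0.813), Rnf112 (1.02), the inhibitory vesicle transporter Slc32a1 (1.08) and Car8 of Purkinje cells (1.09). Neurod2 was at 154, 996 and 3.57 in specimens 6, 8 and 10 against 3.12, 18.4 and 8.74 in the MSC treated ones. Cbln1 ranked 8 (1.18), while C1qtnf4 ranked 107 and C1ql2 ranked 2186.

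For C1qtnf4 the nearest genes were Map6d1 (0.152), Syt13 (0.207), Baalc (0.224), Usp29 (0.254) and Kcnj3 (0.270), the last a subunit of G protein gated potassium channels. Syt13, a synaptotagmin, was at 398, 955 and 70.6 against 77.9, 156 and 72.8. None of these 5 was among the 5 nearest to Cbln3, and Cbln3 itself ranked 3405 of 3527 in likeness to C1qtnf4 (1.98, above the SD of 1.35 of C1qtnf4 itself). Cbln3 had a far wider range, which this measure counts as unlike, although both genes were highest in specimen 8 and next in specimen 6.

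Among the 5 genes nearest to C1ql2 were the oxytocin receptor Oxtr (0.540), the pituitary prohormone gene Pomc (0.542), galanin Gal (0.629) and the urocortin receptor Crhr2 (0.651). All 5 were highest in specimen 6, as C1ql2 was. Pomc was at 641, 56.4 and 17.0 in specimens 6, 8 and 10 and at 118, 25.5 and 166 in specimens 13, 18 and 20. Oxtr was at 80.0, 9.56 and 2.68 against 12.5, 5.11 and 14.6. Cbln3 ranked 3523 of 3527 in likeness to C1ql2, and C1qtnf4 ranked 3160. The 3 genes, listed by the authors in the same direction, thus did not all share 1 pattern over the 6 cochleae. C1ql2 was highest in specimen 6. Cbln3 and C1qtnf4 were both highest in specimen 8 and next in specimen 6, over ranges of different width.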

How the data were processed

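Total RNA of 6 cochleae was sequenced by the authors, who aligned reads to the C57BL/6NJ genome with the AIR software package. The authors deposited read counts per gene multiplied by 1 factor per library (a scaled count, or signal). Division by each library's smallest step returned whole reads for 100% of values (tolerance 1e-06 reads). The authors' lists of 2741 lower and 1137 higher genes also hold group mean FPKM, which were copied, and a fold change and FDR of the authors' comparison, which were not used. Those lists were the only source of symbols: 3716 genes had a name and 162 listed genes had none, so genes outside the lists could not be named here. No column of values was left unmapped (0), and no library pair had identical reads (0 pairs).

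Genes kept by filterByExpr (15970 of 25369 with a read) were fitted in limma 3.58.1 (trend, R 4.3.3) on log2(scaled count + 1), with Benjamini-Hochberg adjustment, in place of the authors' NOISeq. This fold change understates that of low genes. Its p-values test the group difference against the spread between 3 cochleae per group, moderated by a trend over all genes. The count test on recovered reads, edgeR 4.0.16 quasi-likelihood, called 0 genes at an adjusted p of 0.05, as did DESeq2 1.42.0. The scripts were tested on simulated counts. Alternatives were pseudocounts of 0.1 and 10, total-count and median-ratio scaling, no filter, both count tools, each library left out and, added after the data were seen, specimens 6 and 8 left out. Poisson and Wilson intervals were at 95%, and the floor was 3 reads.

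The members and gene lists were chosen with earlier results of these data known. Named genes were the members, every named gene of the C1q-domain, receptor and complement lists, up to 4 of the highest mean scaled count in each other list, and the 5 named genes most like each member. Lhx5, Barhl1, Gabra6 and Cadm1 fall outside that rule and were named after their values were seen. Coding sequences came from GENCODE M21 and were compared with Biopython 1.88. Counting of strand and overlapping genes is not given in the sources used here. Some genes that this rule names are not reported here one by one, but remain in the counts, sums and medians of their lists.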

Additional observations from a re-analysis of the deposited data

How the results depend on the processing

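No paired analysis was possible because the specimen numbers of the groups (6, 8 and 10 against 13, 18 and 20) are not shared. With 1 library left out in turn, log2 fold changes ranged from -6.18 to -1.54 for Cbln3, -1.17 to 0.63 for C1ql2 and -2.52 to -0.68 for C1qtnf4, list medians from -1.41 to -0.35 for C1q-domain genes and -2.04 to -0.25 for receptors and partners, -2.37 to -0.32 for granule cell, -2.56 to -0.31 for Purkinje cell and -1.34 to -0.16 for other organizer genes, 0.37 to 0.91 for hair cell and 0.30 to 0.87 for other cochlear, -1.76 to -0.82 for forebrain and 0.066 to 0.28 for spiral ganglion genes, genes at an adjusted p under 0.05 from 0 to 1 (1 without specimen 10), and genes at an unadjusted p under 0.05, 376 with all libraries, from 171 to 2478 (2478 without specimen 10, 171 without specimen 20, 184 without specimen 18, 233 without specimen 8). C1ql2 changed sign without specimen 6 (0.63) and without specimen 18 (0.30). Without specimens 6 and 8, where specimen 10 alone stands for sound trauma and is assumed to vary like the MSC treated group, the values turned to 1.51 for Cbln3, 0.78 for C1ql2, 0.39 for C1qtnf4, 0.40 for the C1q-domain median and 0.53 for the receptor median, to 0.40 for Cbln1, 0.40, 0.25 and 0.35 for the granule cell, Purkinje cell and other organizer medians and -0.073 and -0.30 for the hair cell and other cochlear medians, with 270 genes at an unadjusted p under 0.05. In edgeR and DESeq2 the C1q-domain median was -1.03 and -1.05 (-0.52 in limma) and the receptor median -1.99 and -1.98 (-1.21). DESeq2 gave 799 genes at an unadjusted p under 0.05 and no filter 726, and the spiral ganglion median of 0.10 turned to -0.035 in edgeR and -0.047 in DESeq2. The median of the complement genes (0.16) kept its direction in all 14 alternatives, from 0.066 to 0.26 with 1 library left out. Pseudocount and scaling turned no sign among the named genes of the C1q-domain, receptor and complement lists other than Cbln2 (0.03 to -0.32 with a pseudocount of 10), although total-count scaling lowered the share of all genes with lower fitted values from 49.8% to 38.1%. Depth limits C1ql2 most, with 2 to 56 reads a library.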

Other observations

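Synapse organizers that use other folds than the C1q domain were described in the same way. Of 36 listed, 23 had a name in the authors' lists, 22 of them on the list of lower genes and 1, Cadm1, on that of higher genes. The naming therefore favoured their directions, and nothing is read from them. Of the 22 tested, 21 had lower and 1 higher fitted values, where 49.8% of all genes tested were lower, with 0 past an unadjusted p of 0.05 in limma and a median log2 fold change of -0.75 (-0.16 without specimen 8, -1.34 without specimen 10, 0.35 without specimens 6 and 8), against 0.00 over all genes tested. Specimen 8 held the highest value of 21 of the 22, where it did so for 28.2% of all genes tested. The naming bears on this too, and nothing is read from that share. Relative to MSC treated cochleae, the median organizer differed by 0.62 in specimen 6, 1.92 in specimen 8 and by -0.35 in specimen 10 on the log2 scale. Clstn1, a calsyntenin, had scaled counts of 4511, 7371 and 4426 in specimens 6, 8 and 10 against 4135, 5782 and 4667 in specimens 13, 18 and 20. Ptprs, a receptor phosphatase that binds organizers of the excitatory synapse, was at 3583, 4282 and 4011 against 2841, 3668 and 3712. Cadm3, an adhesion molecule of axons, was at 1250.5, 5961 and 618 against 691, 993 and 1260.0. Cadm1 was the organizer with a higher fitted value, and its highest value of 1769 was in MSC treated specimen 20.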
